A study of Mus musculus with 12 samples.

Results

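The 10 genes described here, called members, encode Fc and scavenger receptors through which phagocytes bind antibody-coated or modified material, and the adaptors that carry their signal. They were chosen by name: Fcgr1, Fcgr3 and Fcgr4 (activating Fc gamma receptors), Fcgr2b (the inhibitory Fc gamma receptor), Fcer1g and Tyrobp (adaptors), Msr1, Marco and Cd36 (scavenger receptors) and Clec7a (a C-type lectin receptor). The choice was made with earlier results of these data known. All 10 were found among the 18996 genes of the count table, and all 10 passed the filter on low counts.

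Bulk RNA sequencing measured polyadenylated RNA in tissue from beside the spine of 12 mice, 4 in each of 3 groups. The study used BALB/c mice of both sexes aged 5 to 7 weeks, and collected tissue on day 7 after surgery. No operation mice gave intact paraspinal soft tissue. SHAM mice had paraspinal soft tissue removed while the laminae were left in place. In Laminectomy mice the muscles beside the spine were separated, and the laminae and spinous processes were removed. Both groups gave a mixture of soft and scar tissue. The count totals of the mice ranged from 16802989 to 18077868. The methods of the study state 3 mice per group without naming them, and all 4 labelled mice of each group were used here. Nothing in the labels says that the same-numbered mice of different groups belong together.

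An Fc gamma receptor binds the constant part of IgG. The activating receptors have no signalling motif of their own and rely on the common gamma chain encoded by Fcer1g, whose immunoreceptor tyrosine-based activation motif (ITAM) recruits the kinase Syk, whereas Fcgr2b carries an inhibitory motif in its own tail that recruits the phosphatase Inpp5d. Tyrobp is a second ITAM adaptor that serves receptors such as Trem2. Msr1 and Marco are collagen-containing scavenger receptors of macrophages that take up modified lipoproteins and bacteria, Clec7a recognises fungal beta-glucan and signals through Syk and Card9, and Cd36 takes up oxidised lipoproteins in macrophages and long-chain fatty acids in muscle, fat and capillary endothelium.

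Fcgr2b (chr1:170958617-170976547, minus strand, GRCm38) and Fcgr3 (chr1:171051174-171064935, minus strand) are near-identical over their ligand-binding region, and this bears on how their reads can be counted. Both are protein-coding genes. Their coding sequences aligned over 509 bases with 491 identical, an identity of 96.5%, and the longest identical run was 129 bases, longer than the 100-base reads. A 240-base stretch of each is shown, from coding bases 133 to 372 of Fcgr2b and 118 to 357 of Fcgr3, counted from the start codon. Capitals mark the 12 positions at which they differ.
Fcgr2b: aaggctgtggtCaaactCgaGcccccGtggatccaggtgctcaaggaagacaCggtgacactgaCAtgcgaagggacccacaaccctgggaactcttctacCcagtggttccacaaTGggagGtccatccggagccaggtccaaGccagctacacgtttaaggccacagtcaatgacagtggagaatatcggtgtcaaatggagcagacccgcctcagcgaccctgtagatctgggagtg
Fcgr3: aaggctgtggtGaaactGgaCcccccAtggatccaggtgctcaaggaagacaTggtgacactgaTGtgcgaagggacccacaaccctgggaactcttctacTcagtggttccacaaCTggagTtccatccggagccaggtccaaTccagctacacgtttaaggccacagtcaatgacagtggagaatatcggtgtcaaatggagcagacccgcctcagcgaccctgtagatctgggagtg

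Of all stretches of 100 bases in the annotated transcripts, 2.54% of those of Fcgr3 and 1.4% of those of Fcgr2b also occurred in another gene, while the other 8 members shared none. Fcgr2b and Fcgr3 were also the only 2 members with counts that were not whole numbers. Their sum was whole, within 0.001, in all 12 mice. Each of the pair is therefore given with that limit, and their sum is given beside them. Fcgr2b further overlaps the antisense gene Gm38204 over 155 exon bases.

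Promoters are shown for the 4 Fc gamma receptors as a family, the 3 activating receptors beside the inhibitory one. RefSeq promoters (GRCm38.p6, 250 bases before to 50 after a start) were matched for 8 of the 10 members, giving 10 promoters. The letters GAGGAA on either strand (TTCCTC on the other) form the core bound by the myeloid factor PU.1, and capitals mark them. They occurred in 7 of the 10 promoters, belonging to 5 members (Fcgr1, Fcgr3, Fcgr4, Marco and Clec7a), against 28.3% of all 32851 promoters of the same length. Fcgr3 and Clec7a have 2 overlapping windows each, which hold the same single match, so by gene it was 5 of the 8 members with a promoter. The Fcgr2b window held none.
Fcgr1 promoter, chr3:96293920-96294219, minus strand: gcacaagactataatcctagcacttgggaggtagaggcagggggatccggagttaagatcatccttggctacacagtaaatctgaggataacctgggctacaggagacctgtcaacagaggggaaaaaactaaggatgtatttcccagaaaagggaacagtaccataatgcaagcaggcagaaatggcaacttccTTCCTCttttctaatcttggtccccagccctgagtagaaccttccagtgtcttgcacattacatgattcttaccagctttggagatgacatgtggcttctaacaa
Fcgr3 promoter, chr1:171059354-171059653, minus strand: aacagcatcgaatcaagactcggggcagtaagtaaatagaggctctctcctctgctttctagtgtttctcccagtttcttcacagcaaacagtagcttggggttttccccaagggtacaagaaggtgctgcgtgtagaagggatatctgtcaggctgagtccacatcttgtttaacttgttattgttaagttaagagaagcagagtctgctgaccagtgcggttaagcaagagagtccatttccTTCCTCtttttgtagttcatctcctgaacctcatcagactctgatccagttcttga
Fcgr4 promoter, chr1:171018676-171018975, plus strand: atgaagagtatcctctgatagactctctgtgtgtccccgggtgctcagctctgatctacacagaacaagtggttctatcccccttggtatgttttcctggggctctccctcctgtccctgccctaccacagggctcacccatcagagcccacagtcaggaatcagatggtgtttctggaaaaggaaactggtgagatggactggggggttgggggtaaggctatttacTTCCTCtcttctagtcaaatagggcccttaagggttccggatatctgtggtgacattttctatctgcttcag
Fcgr2b promoter, chr1:170976022-170976321, minus strand: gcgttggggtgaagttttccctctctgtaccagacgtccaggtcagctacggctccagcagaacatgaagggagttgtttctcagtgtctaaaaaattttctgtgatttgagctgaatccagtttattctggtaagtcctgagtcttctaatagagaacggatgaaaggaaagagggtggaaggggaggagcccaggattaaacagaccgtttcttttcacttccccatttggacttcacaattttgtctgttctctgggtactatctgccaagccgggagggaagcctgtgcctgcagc

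All 10 members differed between each operated group and No operation mice. Fcgr1, Fcgr3, Fcgr4, Fcgr2b, Fcer1g, Tyrobp, Msr1, Marco and Clec7a were higher and Cd36 was lower in both SHAM and Laminectomy mice. Calls were made with edgeR's quasi-likelihood test over all tested genes and needed a p, adjusted by Benjamini-Hochberg, under 0.05 together with a log2 fold change of more than 0.5 in size. In SHAM mice 9 of 10 members were called higher, against 25.7% of all 14765 tested genes, and 1 lower, against 25.1%. In Laminectomy mice the same counts of 9 and 1 compared with 24.2% and 24.4% of all genes. The members and the gene lists below were chosen with earlier results of these data known. Counts set beside shares of all genes therefore describe these sets and do not test them. DESeq2 also called all 10 members in both comparisons, against 46.5% and 45.1% of its genes. Every operated mouse lay above every No operation mouse for the 9 higher members, a pattern of 26.7% of tested genes in SHAM and 27.0% in Laminectomy mice, and below for Cd36, a pattern of 27.8% and 29.0%. The median log2 fold change of the members was 2.69 in SHAM and 2.22 in Laminectomy mice, while that of all tested genes was -0.0020 and 0.0093. Both comparisons share the No operation mice and are not independent of each other. SHAM mouse 1 stood apart on the second principal component, at 76 against 0.0748 to 24.1 in the other SHAM mice, and without it all 10 members were still called in SHAM mice. Because the tissue was sequenced in bulk, more cells of a type and more RNA per cell cannot be told apart.

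**Figure D1:**
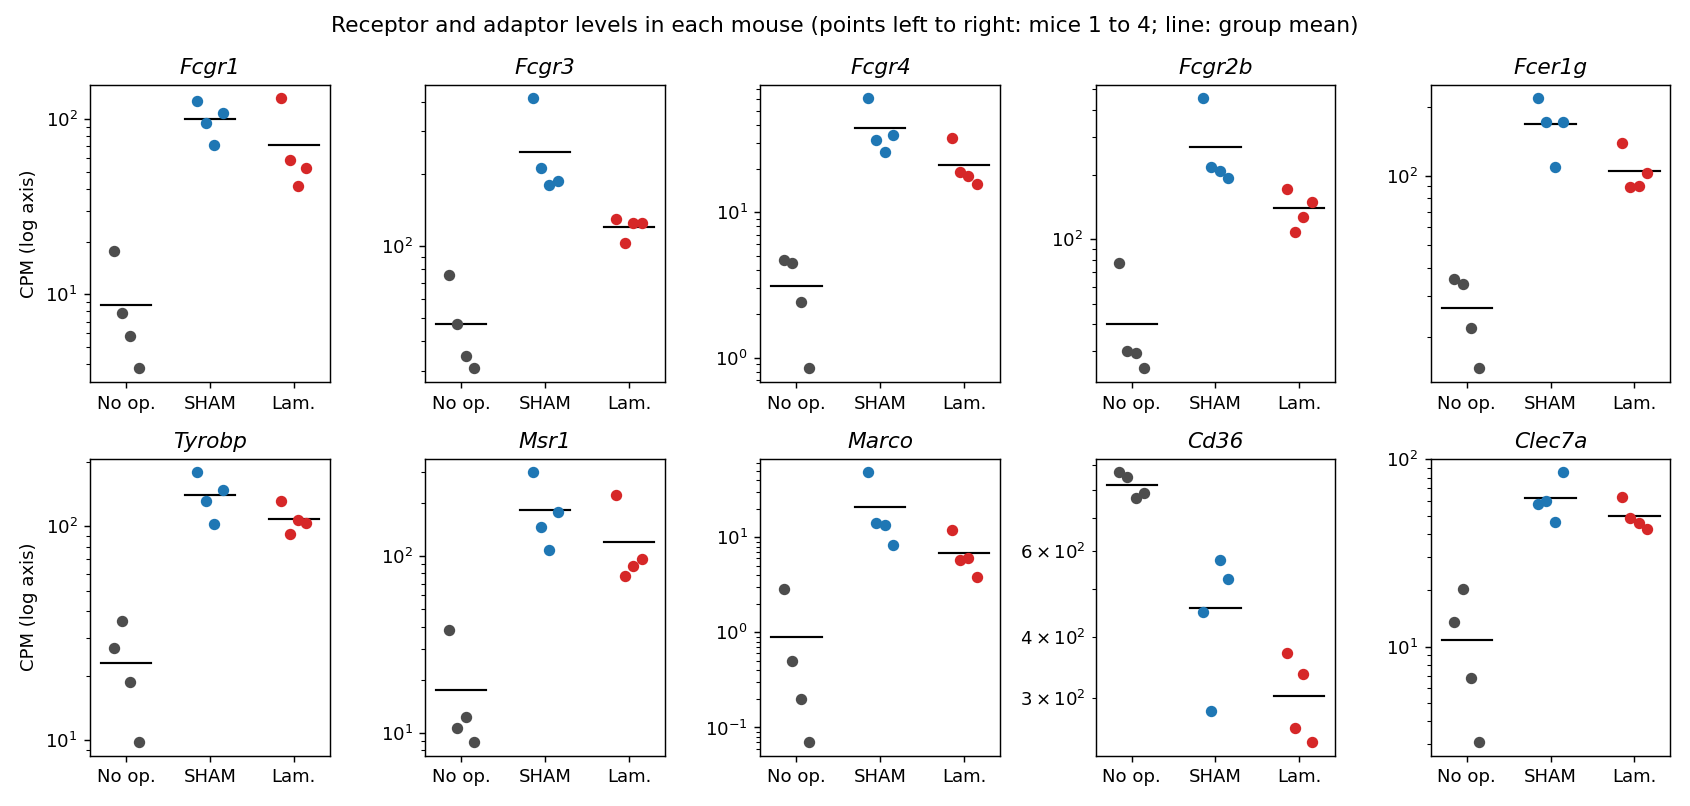
Each panel plots the CPM of 1 member on a log axis, with 1 point per mouse in label order and a line at the group mean (4 mice per group; No op., No operation; Lam., Laminectomy). For 9 members every operated mouse sits above every No operation mouse, and for Cd36 every operated mouse sits below.

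The activating receptor Fcgr1 (chr3:96282909-96293969, minus strand), the high-affinity IgG receptor, stood at 17.6, 7.81, 5.79 and 3.79 CPM (counts scaled to a common library size by TMM) in No operation mice 1 to 4. SHAM mice reached 126, 95.4, 70.7 and 109 CPM, and Laminectomy mice 131, 58.1, 41.4 and 52.8 CPM. All 8 operated mice lay above all 4 No operation mice, and Laminectomy mouse 1 was the highest of all. The log2 fold change was 3.52 ± 0.50 (SE, n = 4 per group) in SHAM mice (edgeR, adjusted p = 0.000108) and 3.02 ± 0.49 in Laminectomy mice (edgeR, adjusted p = 0.000321). Without No operation mouse 1 these became 4.11 and 3.61.

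Fcgr4 (chr1:171018920-171029761, plus strand), an activating receptor of myeloid cells, stood at 4.69, 4.47, 2.40 and 0.841 CPM in No operation mice. SHAM mice had 60.7, 31.5, 25.8 and 34.1 CPM and Laminectomy mice 32.2, 19.0, 17.7 and 15.5 CPM. The mean was 12.3 times that of No operation mice in SHAM mice and 6.81 times in Laminectomy mice. The log2 fold changes were 3.61 ± 0.47 (edgeR, adjusted p = 6.3e-05) and 2.76 ± 0.46 (edgeR, adjusted p = 0.000388). SHAM mouse 1 was the highest, and the ranges of the operated groups overlapped through Laminectomy mouse 1.

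Fcgr3, the low-affinity activating receptor, was the most abundant of the 3 activating receptors per length in each group. Its CPM was 75.6, 47.1, 34.4 and 30.6 in No operation mice, 412, 210, 179 and 186 in SHAM mice and 129, 102, 124 and 125 in Laminectomy mice. The 3 groups did not overlap. Its rise in SHAM mice had a log2 fold change of 2.40 ± 0.33 (edgeR, adjusted p = 9.15e-05), and that in Laminectomy mice 1.35 ± 0.32 (edgeR, adjusted p = 0.00352).

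Fcgr2b, the inhibitory receptor, stood at 77.1, 30.2, 29.3 and 24.95 CPM in No operation mice. SHAM mice had 453, 218, 208 and 192 CPM and Laminectomy mice 172, 109, 127 and 148 CPM, again without overlap between the 3 groups. The log2 fold changes were 2.73 ± 0.40 (edgeR, adjusted p = 0.000145) and 1.78 ± 0.39 (edgeR, adjusted p = 0.00217). No operation mouse 1 and SHAM mouse 1 were each far above the other 3 mice of their group.

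Summed as a single feature, Fcgr2b and Fcgr3 held 793 to 2215 counts in No operation mice, 7084 to 15405 in SHAM mice and 4103 to 5687 in Laminectomy mice. The sum, which does not depend on how shared reads were divided between these genes, had a log2 fold change of 2.56 ± 0.36 in SHAM mice (edgeR, adjusted p = 0.000111) and 1.57 ± 0.35 in Laminectomy mice (edgeR, adjusted p = 0.00252). The direction and the call were thus those of each gene alone.

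**Figure D2:**
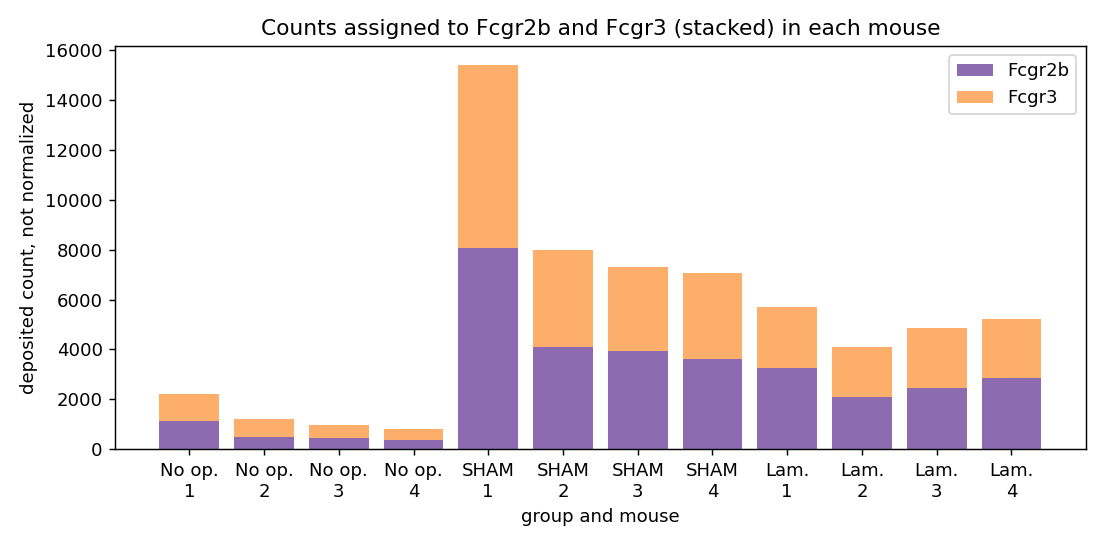
Stacked bars give the deposited counts of Fcgr2b and Fcgr3 in each mouse, not normalized, on an axis that starts at 0. The sums lie between 793 and 2215 in No operation mice and between 4103 and 15405 in operated mice, with SHAM mouse 1 the tallest bar.

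The balance of activating to inhibitory receptors was compared as the difference of log2 CPM within each mouse. Fcgr1 relative to Fcgr2b averaged -2.27 ± 0.32 (SD, n = 4) in No operation, -1.35 ± 0.44 in SHAM and -1.10 ± 0.57 in Laminectomy mice. The rise of 0.91 in SHAM and of 1.17 in Laminectomy mice had a two-sided exact permutation p of 0.0286 each, the smallest that 4 against 4 allows, and an adjusted p of 0.0686 over the 12 ratio tests. Fcgr3 relative to Fcgr2b went the other way, by -0.40 in SHAM and -0.48 in Laminectomy mice (exact permutation p = 0.0286 and adjusted p = 0.0686 for both). Fcgr4 relative to Fcgr2b differed by 0.95 and 1.00 (exact permutation p = 0.114 and 0.0857, adjusted p = 0.171 for both). All 3 of these balances use Fcgr2b, whose counts depend in part on how reads shared with Fcgr3 were divided. None of the 12 ratio tests passed the adjustment. Any 1 of them could pass only if most of the 12 reached the smallest p that 4 against 4 allows.

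Fcer1g (chr1:171229572-171234365, minus strand), the gamma chain shared by the activating receptors, had 35.8, 34.1, 21.9 and 14.6 CPM in No operation mice. The SHAM values were 217, 171, 109 and 172 CPM, and the Laminectomy values 139, 89.6, 90.3 and 103 CPM. Operated and No operation mice did not overlap, while SHAM mouse 3 lay within the Laminectomy range. The log2 fold change was 2.65 ± 0.30 in SHAM (edgeR, adjusted p = 2.76e-05) and 1.98 ± 0.29 in Laminectomy mice (edgeR, adjusted p = 0.000182).

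Tyrobp (chr7:30413760-30417585, plus strand), the adaptor of the Trem receptors, had 26.9, 36.0, 18.8 and 9.81 CPM in No operation mice. SHAM mice had 179, 131, 102 and 148 CPM and Laminectomy mice 132, 91.7, 107 and 103 CPM. The log2 fold changes were 2.61 ± 0.33 (edgeR, adjusted p = 5.45e-05) and 2.24 ± 0.33 (edgeR, adjusted p = 0.000167). Here the highest No operation mouse was mouse 2, not mouse 1. Fcer1g relative to Tyrobp was 0.28 ± 0.28 in No operation, 0.25 ± 0.12 in SHAM and -0.05 ± 0.14 in Laminectomy mice (log2, SD, n = 4). The difference was -0.03 for SHAM against No operation (exact permutation p = 0.8, adjusted p = 0.8), -0.33 for Laminectomy against No operation (exact permutation p = 0.114, adjusted p = 0.171) and -0.30 for Laminectomy against SHAM (exact permutation p = 0.0286, adjusted p = 0.0686).

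Among the scavenger receptors, Msr1 (chr8:39581685-39642673, minus strand), scavenger receptor A of macrophages, had 38.5, 10.8, 12.3 and 8.90 CPM in No operation mice. The SHAM values were 298, 146, 108 and 177 CPM, and the Laminectomy values 221, 77.3, 87.7 and 96.4 CPM. The first mouse was the highest in every group, and the operated mice did not overlap with No operation mice. The log2 fold changes were 3.37 ± 0.55 (edgeR, adjusted p = 0.000307) and 2.78 ± 0.54 (edgeR, adjusted p = 0.00106), and without No operation mouse 1 they became 4.09 and 3.50.

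Marco (chr1:120474538-120505024, minus strand), a receptor for bacteria on subsets of macrophages, was the least abundant member. No operation mice held 41, 8, 3 and 1 counts, or 2.83, 0.504, 0.1998 and 0.070 CPM. SHAM mice had 48.4, 14.1, 13.4 and 8.22 CPM and Laminectomy mice 11.96, 5.71, 6.01 and 3.81 CPM. The log2 fold changes were 4.54 ± 0.90 in SHAM (edgeR, adjusted p = 0.00107) and 2.93 ± 0.87 in Laminectomy mice (edgeR, adjusted p = 0.0125). These sizes depended on single mice: without No operation mouse 1 they were 6.28 and 4.67, and without SHAM mouse 1 the first was 3.73. The call and the direction held in each case.

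Cd36 (chr5:17781690-17888801, minus strand) was the only member that was lower after surgery. No operation mice held 869, 850, 770 and 787 CPM. SHAM mice held 448, 282, 575 and 525 CPM, and Laminectomy mice 371, 260, 335 and 243 CPM. No operation mice varied little, with a coefficient of variation of 5.81%, and all lay above every operated mouse. The log2 fold change was -0.84 ± 0.21 in SHAM (edgeR, adjusted p = 0.00471) and -1.44 ± 0.21 in Laminectomy mice (edgeR, adjusted p = 0.000182). The SHAM call was lost when an absolute log2 fold change above 1 was required.

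Markers of muscle, fat and capillary endothelium, in which Cd36 is also known to act, were measured beside it, and 25.1% of all tested genes were called lower in SHAM and 24.4% in Laminectomy mice. All 10 skeletal muscle markers fell in both operated groups, and their summed level ranged from 84378 to 119273 CPM in No operation, 2080 to 7765 CPM in SHAM and 2554 to 11269 CPM in Laminectomy mice. Pvalb (parvalbumin) fell the most (-5.57 and -4.45, log2). Of 8 adipocyte markers, 4 fell in SHAM and all 8 in Laminectomy mice, with summed levels of 2119 to 3642, 276 to 2377 and 80.1 to 501 CPM; Lep (leptin) fell the most in SHAM (-3.05) and Cfd (adipsin) in Laminectomy mice (-4.74). Of 8 capillary endothelium markers, 3 fell and 5 were not called in each operated group, with summed levels of 772 to 1059, 536 to 740 and 519 to 784 CPM, and Flt1, a receptor for vascular endothelial growth factor, fell the most (-1.82 and -1.75). Of 12 genes of fatty acid uptake and use, 11 fell in SHAM and 12 in Laminectomy mice, among them Ppargc1a, a coactivator of mitochondrial genes (log2 fold change -4.11 and -3.38), and Ppara, a receptor for fatty acids (-3.64 and -3.83). The part of these tissues in the Cd36 result was not tested.

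Clec7a (chr6:129461591-129472779, minus strand), the beta-glucan receptor Dectin-1, is annotated by GENCODE as a polymorphic pseudogene and had 13.5, 20.2, 6.79 and 3.08 CPM in No operation mice. SHAM mice had 57.6, 60.1, 46.2 and 85.4 CPM and Laminectomy mice 62.9, 48.6, 45.5 and 42.7 CPM. The operated groups overlapped, and both lay above all No operation mice. The log2 fold changes were 2.51 ± 0.44 (edgeR, adjusted p = 0.0005) and 2.19 ± 0.44 (edgeR, adjusted p = 0.00128).

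**Figure D3:**
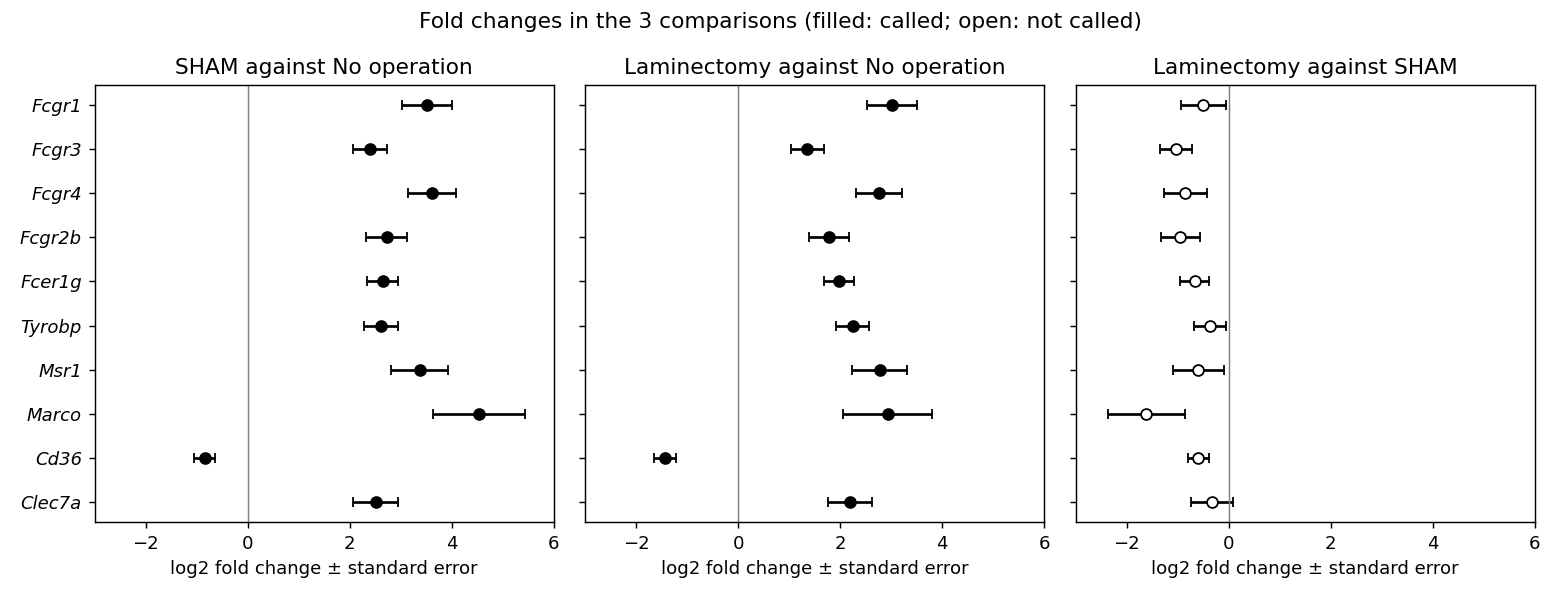
Points give the fitted log2 fold change of each member with its standard error as the bar, in the 3 comparisons (filled, called; open, not called). The members other than Cd36 lie between 1.35 and 4.54 in the comparisons with No operation mice, Cd36 lies below 0, and all 10 points for Laminectomy against SHAM are open and below 0.

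Laminectomy and SHAM mice were compared as the groups operated with and without removal of bone. No member was called by edgeR, and neither was any of the 14765 tested genes (0%), of which 2359 had an unadjusted p below 0.05. All 10 fitted log2 fold changes were negative, from -0.32 for Clec7a to -1.61 for Marco, with a median of -0.63 against 0.0037 for all genes. The fitted values of all 10 macrophage markers were negative as well, from -0.27 to -0.85 with a median of -0.61, and none was called. At an unadjusted p under 0.05 there were 4 members. Fcgr3 had a log2 fold change of -1.04 ± 0.32 (edgeR, adjusted p = 0.159), Cd36 of -0.60 ± 0.21 (edgeR, adjusted p = 0.202), Fcgr2b of -0.95 ± 0.38 (edgeR, adjusted p = 0.252) and Fcer1g of -0.67 ± 0.28 (edgeR, adjusted p = 0.278). DESeq2 called 687 of 16357 genes (4.2%) and 1 member, Fcgr3, at a log2 fold change of -1.04 (DESeq2, adjusted p = 0.0363).

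Fcgr3 and Fcgr2b were the 2 members whose Laminectomy mice all lay below all SHAM mice, a pattern that 5.07% of all tested genes showed, and no member had all Laminectomy mice above all SHAM mice, a pattern of 5.05%. The exact permutation p of Fcgr3 and of Fcgr2b was 0.0286. Their sum had a log2 fold change of -0.99 ± 0.35 (edgeR, adjusted p = 0.2004). SHAM mouse 1 weighed on these values. Without it, the change of Fcgr3 was -0.67 (edgeR, adjusted p = 0.414), that of Fcgr2b -0.56 (edgeR, adjusted p = 0.635) and that of Marco -0.79 (edgeR, adjusted p = 0.775). The same mouse had the highest summed macrophage markers, 5720 CPM against 3319 to 3596 CPM in the other 3 SHAM mice.

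Levels of different members were compared per kilobase of merged exons. In No operation mice Cd36 led at 228 ± 13.2 CPM per kb (SD, n = 4), followed by Tyrobp at 34.3 ± 16.8, Fcer1g at 30.4 ± 11.6 and Fcgr3 at 27.03 ± 11.7, whose ranges overlapped. Fcgr2b stood at 6.97, Clec7a at 4.13, Fcgr1 at 3.38, Msr1 at 2.78, Fcgr4 at 2.47 and Marco at 0.467 CPM per kb. In SHAM mice the adaptors led, with Tyrobp at 210 ± 48.1 and Fcer1g at 192 ± 50.8 CPM per kb, ahead of Fcgr3 at 142 ± 64.0 and Cd36 at 127 ± 35.7, each overlapping its neighbour in that order. Laminectomy mice had Tyrobp at 162 ± 25.3, Fcer1g at 120 ± 26.4, Cd36 at 84.2 ± 16.9 and Fcgr3 at 69.1 ± 6.87 CPM per kb. These levels depended on the length used: over the longest transcript, the SHAM mean of Msr1 became 50.1 in place of 28.7 CPM per kb, and that of Fcgr2b 75.6 in place of 46.3. The order changed as well. On that length Msr1 passed Fcgr1 in No operation (4.84 and 3.38), SHAM (50.1 and 38.7) and Laminectomy mice (33.2 and 27.4), and Clec7a in No operation mice (4.84 and 4.79). Fcer1g passed Tyrobp in No operation (38.9 and 38.3) and SHAM mice (245 and 234), and Fcgr3 passed Cd36 in Laminectomy mice (89.1 and 88.9). Msr1 also passed Fcgr4 in SHAM mice (50.1 and 30.3), and Fcgr2b passed Fcgr1 in Laminectomy mice (39.3 and 27.4).

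Macrophage markers moved with the members. All 10 macrophage markers rose in both operated groups, where 25.7% of all tested genes were called higher in SHAM and 24.2% in Laminectomy mice, and their summed level ranged from 576 to 1270 CPM in No operation, 3319 to 5720 CPM in SHAM and 2361 to 3267 CPM in Laminectomy mice. Ms4a7, a macrophage membrane protein, had the largest increase (log2 fold change 3.93 and 3.67). Its level was 16.7 CPM in No operation mouse 1 against 2.73 to 4.41 CPM in the other No operation mice. Neutrophils carry several of these receptors as well. Of 11 neutrophil markers, 1 was called higher in each operated group, below the shares of all genes just given, Csf3r in SHAM (2.62) and Mmp9, which is also on the osteoclast list, in Laminectomy mice (2.65). Their summed level ranged from 38.6 to 4679 CPM in No operation, 752 to 2100 CPM in SHAM and 1636 to 4152 CPM in Laminectomy mice. In No operation mice Csf3r ranged from 2.24 to 81.0 CPM and Mmp9 from 6.73 to 444 CPM, with mouse 2 the highest for both. No operation mouse 1, the highest No operation mouse for 8 of the 10 members, including Cd36, held the macrophage sum of 1270 CPM against 576 to 694 CPM in the others. No operation mouse 2, the highest No operation mouse for Tyrobp and Clec7a, held the value of 4679 CPM. The part of neutrophils in the levels of the members was not tested.

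Each member was therefore also expressed relative to the mean log2 CPM of the 10 macrophage markers of the same mouse. Fcgr1 was higher by 1.01 in SHAM and 0.98 in Laminectomy mice on this scale, with no overlap with No operation mice (exact permutation p = 0.0286 and adjusted p = 0.143 over 30 tests for both). Fcgr3 was lower by 0.67 in Laminectomy mice (coded as Laminectomy minus No operation, -0.67, exact permutation p = 0.0286, adjusted p = 0.143), and Cd36 differed by -3.58 and -3.57 (exact permutation p = 0.0286, adjusted p = 0.143). Fcer1g differed by -0.0011 and -0.06, Tyrobp by 0.03 and 0.27, Clec7a by 0.09 and 0.37 and Fcgr2b by 0.09 and -0.19. Msr1, Fcgr4 and Marco differed by 0.83, 1.05 and 2.18 in SHAM and by 0.79, 0.81 and 1.38 in Laminectomy mice. Between Laminectomy and SHAM mice, Fcgr3 differed by -0.37 on this scale (exact permutation p = 0.0286, adjusted p = 0.143), Fcgr2b by -0.28, Fcgr4 by -0.24 and Marco by -0.79. Fcgr1 differed by -0.03, Msr1 by -0.04, Fcer1g by -0.06, Cd36 by 0.02, Tyrobp by 0.24 and Clec7a by 0.29. None of the 30 tests passed the adjustment. With 4 mice against 4, any 1 of them could pass only if most of the 30 reached the smallest possible p of 0.0286. The adjustment therefore decides little about single members here. Several signs depended on the reference. With Csf1r alone, Fcgr3 went from -0.30 to 0.53 in SHAM and from -0.67 to 0.11 in Laminectomy mice, Fcer1g became 0.83 and 0.72, and Fcgr2b in Laminectomy mice became 0.59.

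**Figure D4:**
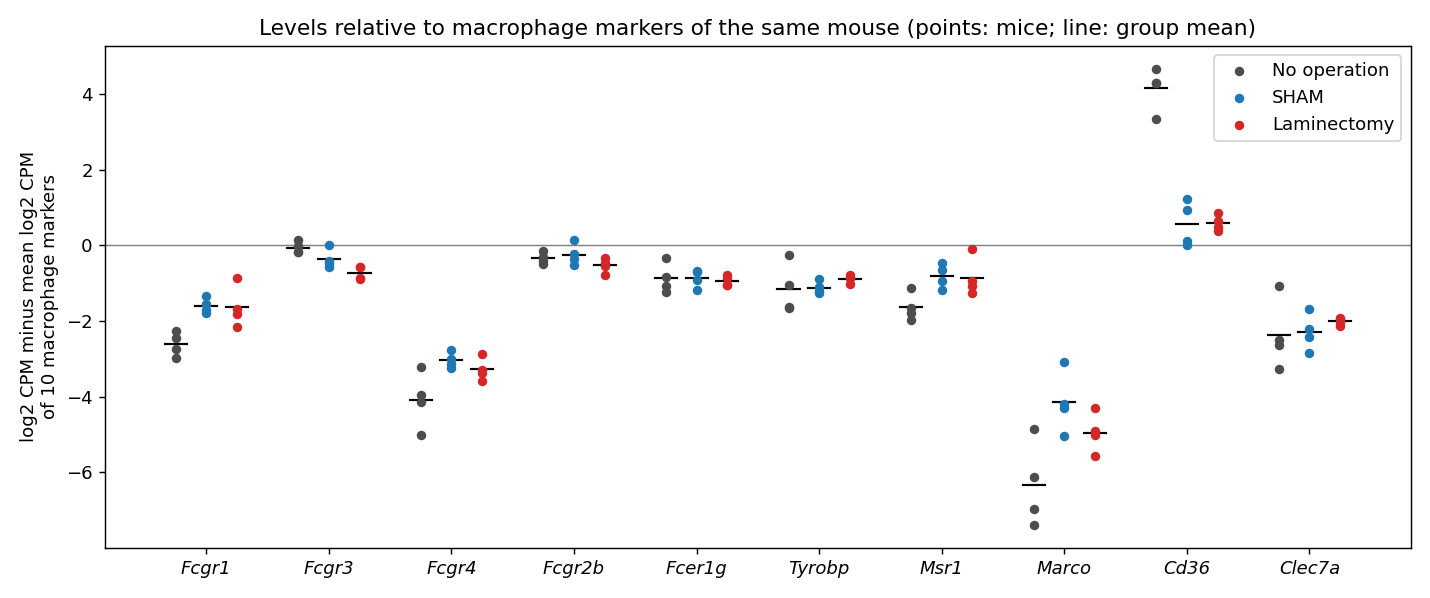
Each point is 1 mouse, and the y axis gives the log2 CPM of a member minus the mean log2 CPM of 10 macrophage markers in the same mouse, with lines at the group means. Fcgr1 lies higher in both operated groups by about 1.01 and 0.98, the points of Fcer1g overlap between the groups, and Cd36 drops from a mean of 4.15 to 0.57 in SHAM and 0.59 in Laminectomy mice.

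The signalling genes behind the receptors moved in the same direction. Of 27 genes of Fc receptor and ITAM signalling, 26 rose in SHAM and 23 in Laminectomy mice and none fell, with median log2 fold changes of 1.76 and 1.36, where 25.7% and 24.2% of all tested genes were called higher. Pik3r5, a regulatory subunit of phosphoinositide 3-kinase, had the largest increase in SHAM (2.82) and Lat2, a linker protein, in Laminectomy mice (2.34). Of 18 other receptors that couple to Tyrobp or Fcer1g, 14 rose in each operated group and none fell, with medians of 2.75 and 2.04. Clec4n (Dectin-2), which signals through Fcer1g, rose the most (log2 fold change 5.09 and 4.72). Its mean was 3.14 CPM in No operation mice, 107 CPM in SHAM and 82.9 CPM in Laminectomy mice. The No operation mice were uneven, from 0.491 to 9.30 CPM, against at least 79.3 CPM in SHAM and 59.1 CPM in Laminectomy mice.

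Other Fc receptors and other scavenger receptors held genes called in both directions, as did all tested genes, of which 25.7% were called higher and 25.1% lower in SHAM mice and 24.2% and 24.4% in Laminectomy mice. Of 13 other Fc receptors 9 were tested, of which 4 rose and 2 fell in SHAM mice and 3 rose and 3 fell in Laminectomy mice. Fcrlb, an Fc receptor-like protein, rose the most (5.36 and 4.59), and Ms4a2, the beta chain of the mast cell IgE receptor, fell the most (-1.72 and -1.53). Of 21 other scavenger receptors, 11 rose and 3 fell in SHAM mice and 7 rose and 4 fell in Laminectomy mice, the latter near those shares. Cxcl16, a membrane chemokine that binds oxidised lipoprotein, rose the most (3.18 and 2.89), and Timd4, a phosphatidylserine receptor of resident macrophages, fell the most (-2.83 and -3.55).

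**Figure D5:**
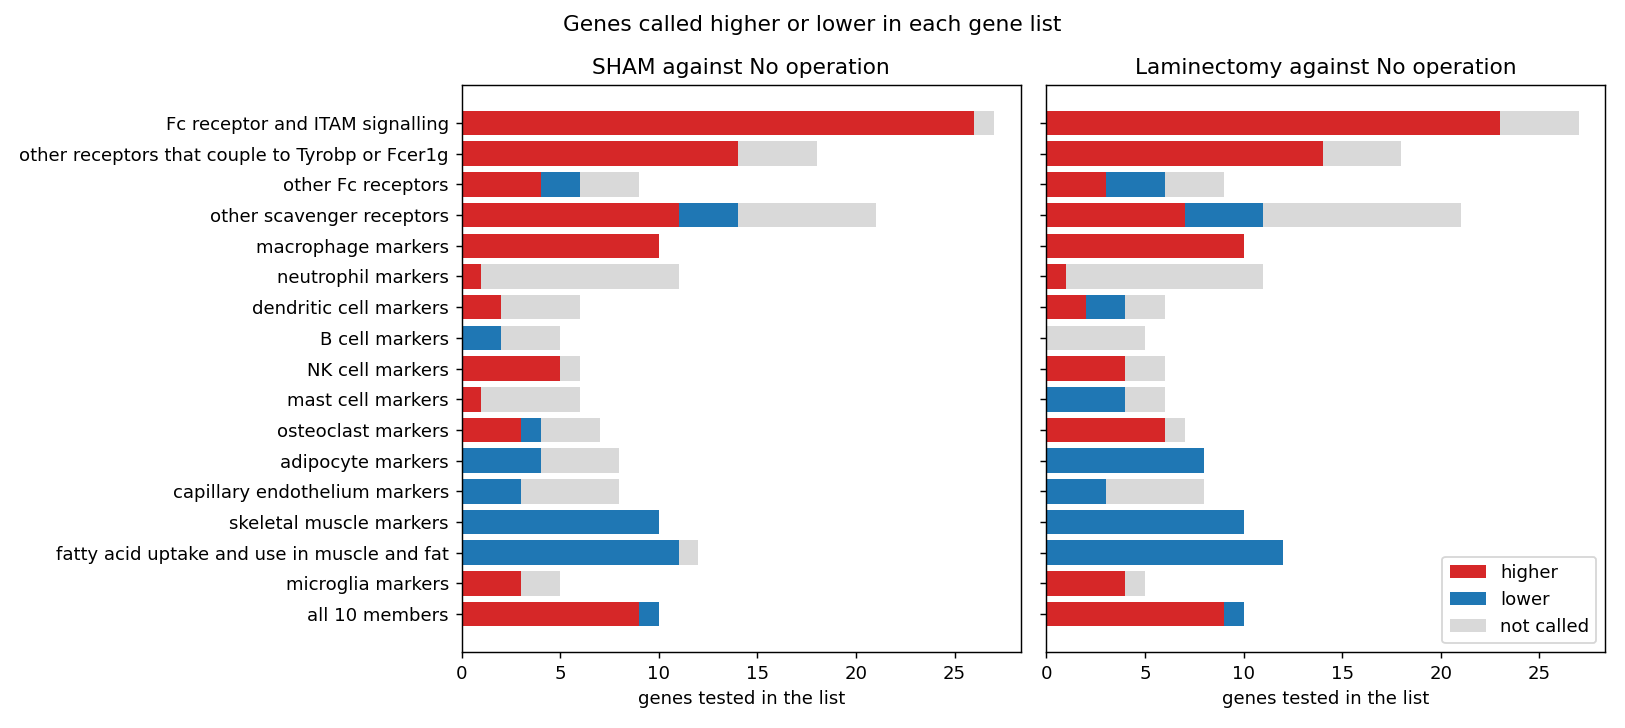
Horizontal bars give the number of tested genes in each list that edgeR called higher (red), called lower (blue) or did not call (grey) in SHAM and Laminectomy mice against No operation mice. Signalling genes (26 and 23 of 27) and macrophage markers (10 of 10) are red, muscle markers (10 of 10) are blue, and the other Fc and scavenger receptors hold both colours.

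Markers of further cell types were measured alongside, and their counts stand against 50.8% of all tested genes called in either direction in SHAM and 48.6% in Laminectomy mice. Of 6 NK cell markers, 5 rose in SHAM and 4 in Laminectomy mice, Prf1 (perforin) the most (3.17 and 2.06), at summed levels of 0.631 to 8.75, 8.17 to 16.9 and 5.08 to 15.02 CPM. Of 6 mast cell markers, Hdc rose in SHAM mice (2.29) and 4 fell in Laminectomy mice, Tpsb2 (a tryptase) the most (-3.41). Of 5 tested B cell markers, 2 were called lower in SHAM mice, Pax5 with the largest decrease (-2.84), and none was called in Laminectomy mice, where the median log2 fold change was -0.84. The Pax5 level was 0.069, 11.5, 3.00 and 0.140 CPM in the 4 No operation mice against 0.281 to 0.854 CPM in SHAM mice, so that No operation mice 1 and 4 lay below every SHAM mouse, and 0 B cell markers were called without No operation mouse 2 or 3 or without any 1 of the SHAM mice. Of 6 tested dendritic cell markers, 2 rose in each operated group, Ccr7 the most (2.47 and 2.27), and 2 fell in Laminectomy mice, Cd209a the most (-1.20). Of 7 osteoclast markers, 3 rose and Calcr fell (-1.64) in SHAM mice and 6 rose in Laminectomy mice, Atp6v0d2 the most in SHAM (1.85) and Ocstamp in Laminectomy mice (3.69). Of 5 microglia markers, 3 and 4 rose, Tmem119 the most in SHAM (1.35) and Sall1 in Laminectomy mice (2.67). Sall1 had 3 counts or fewer in 7 of the 12 mice. Its level was 0, 0.693, 0.067 and 0.070 CPM in the 4 No operation mice. Laminectomy mice had 0.469 to 3.19 CPM, and No operation mouse 2 lay within this range. The part of these cell types in the levels of the members was not tested.

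Genes with the pattern most like each member were found by the root mean square difference of centred log2 CPM over the 12 mice, which share libraries and the group differences. Cfp (properdin) was nearest to Fcgr3 at 0.13, Cd53 to Fcer1g at 0.15, Cd84 to Tyrobp at 0.17, Il4ra to Fcgr2b at 0.18, C3ar1 to both Fcgr1 at 0.20 and Msr1 at 0.21, Slc15a3 to Fcgr4 at 0.21, Il7r to Clec7a at 0.22, Sqor to Cd36 at 0.23 and Fosl1 to Marco at 0.44. Next in order were Ctss and Basp1 for Fcgr1, Ctsh and P2rx4 for Fcgr3, Tlr13 and Adam8 for Fcgr4, Slc39a14 and Clec4a3 for Fcgr2b, Cd200r1 and Pik3r5 for Fcer1g, Clec4a2 and Pkib for Tyrobp, Dpep2 and Basp1 for Msr1, Hmox1 and F7 for Marco, Slc22a4 and Lonp2 for Cd36, and 5430427O19Rik and Cd84 for Clec7a. Among the members the nearest pairs were Fcer1g with Tyrobp at 0.22, Fcgr3 with Fcgr2b at 0.27, Tyrobp with Clec7a at 0.27 and Fcgr1 with Msr1 at 0.28. Over the 8 operated mice alone, 3 of the 30 pairings of a member with a like gene remained among the 3 nearest: Ctsh for Fcgr3, Dpep2 for Msr1 and Fosl1 for Marco.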

How the data were processed

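Polyadenylated RNA from 12 mice was sequenced with a stranded library kit as 100-base reads. Per the labels and the methods, the authors aligned reads with STAR 2.6.1b to GRCm38 (mm10) and counted them per gene with featureCounts 2.0.1 at default settings; use of strand is not stated beyond this. The authors deposited estimated counts, not normalized, of which 10.22% were not whole numbers; the step that made these is not given in the sources used here. The planned design assumed whole-number counts, and values were rounded before testing.

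Genes were filtered with filterByExpr (14765 kept, 4231 removed), scaled by TMM (factors 0.849 to 1.13) and fitted for all 12 mice in 1 quasi-likelihood model with edgeR 4.0.16 in R 4.3.3 (common dispersion 0.0799). DESeq2 1.42.0 and limma 3.58.1 were alternatives, and the fit was tested on simulated data. A limit set on how many changed genes it should recover was missed in 1 of the 3 simulated comparisons; after this was seen, it was replaced by checks of direction, false calls and fold size, which passed. CPM was TMM-scaled, and log2 CPM used a prior count of 2. Ratios were tested by exact permutation, two-sided, with Benjamini-Hochberg adjustment. The standard error is the absolute log2 fold change divided by the square root of F.

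Intervals of counting error were not used, since spread between mice set the precision. The edgeR p-values set a group difference against the spread between these mice. The permutation p-values set it against regroupings of the same mice. Gene models were from GENCODE (GRCm38) and promoters from RefSeq (GRCm38.p6). Named genes were all members, the 3 genes most like each in pattern, and the called genes of each list with the largest increase and decrease. Members and lists were chosen with earlier results of these data known.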

Additional observations from a re-analysis of the deposited data

Results flagged for a closer look

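Of 72 groups of 4 mice examined for a mouse far from the others, 3 were marked, and chance marks about 1 in 20. The gap of Fcgr2b in No operation mouse 1 to the nearest mouse of its group was 0.83 of the group's range of log2 CPM. Fcgr2b in SHAM mouse 1 had a gap of 0.853 of the range, with 453 CPM against 192 to 218 CPM in the other 3 mice. Fcgr3 in Laminectomy mouse 2 had a gap of 0.835, with 102 CPM against 124 to 129 CPM in the others. No explanation was tested for these values.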

How the results depend on the processing

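All 10 members kept their direction in each comparison with No operation mice under every alternative in which they were tested, and 2 calls changed: Cd36 in SHAM mice was lost at an absolute log2 fold change above 1, and Fcgr3 in Laminectomy against SHAM was gained with DESeq2, which called 1 member there. A minimum of 10 counts in every mouse removed Marco from the test and left 9 members called. Leaving out 1 mouse at a time gave 10 members called in each comparison with No operation mice, where 6966 to 7642 of all genes were called in SHAM and 6534 to 7416 in Laminectomy mice, and 0 members and 0 genes in Laminectomy against SHAM. With Csf1r alone as the macrophage reference, 6 differences that had not passed the test turned sign: Fcgr3 (0.53) and Fcer1g (0.83) in SHAM, Fcgr3 (0.11), Fcgr2b (0.59) and Fcer1g (0.72) in Laminectomy against No operation, and Cd36 (-0.0314) in Laminectomy against SHAM. The cause was not tested. Of the 30 pairings of a member with a gene of like pattern, 3 remained over the 8 operated mice. The replicate block gave 10, 10 and 0 members called, among 7442, 7153 and 0 of all 14765 genes. Same-numbered mice did not all deviate together: of 12 pairs 7 had a correlation over 0.1 (range -0.228 to 0.352). Of the mice, 6 correlated best with their own number. Whether this exceeds what different-numbered mice show was not tested. The numbers were not used as pairs because nothing in the labels says that same-numbered mice belong together. The 3 added alternatives were chosen after seeing the data: the sum of Fcgr2b and Fcgr3, leaving out the first No operation and SHAM mice together (10, 10 and 0 members called, among 7125, 7245 and 1 of 14877 genes), and the length of the longest transcript. Marco, with 1 to 41 counts in No operation mice, was the member most limited by depth.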
